A study of Mus musculus with 4 samples.

Results

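The regions described here are stretches of open chromatin on the mouse autosomes with a peak in each wt library and none in a Hox-/- library. To find them, the intervals of all 4 deposited peak lists were merged wherever they overlapped by at least 1 bp, which gave 208211 regions. Of these, 203536 lay on the 19 autosomes outside the 4 Hox gene clusters, and 143458 of those were called in both wt libraries. The wt-only regions numbered 7666, which is 3.77% of the autosomal regions and 5.34% of those called in both wt libraries. The regions were chosen by these peak calls, so their presence in wt and absence in Hox-/- is a definition and was not tested.

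The data came from ATAC-seq of mouse embryonic stem (ES) cells of 2 genotypes, with 2 libraries of each. The wt cells carried no labelled alteration. The other cells were labelled Hox-/-, with BADC in the names of their libraries, and the title of the study describes them as lacking all Hox function. All cells grew in the same medium with serum, leukaemia inhibitory factor, the GSK-3 inhibitor CHIR99021 and the MEK1/2 inhibitor PD0325901. The labels name no parental line, no clone and no number of separate cultures, so differences between the genotypes cannot be told apart from differences between lines or clones, and the spread between libraries may be technical.

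In ATAC-seq a transposase cuts DNA that is not covered by nucleosomes and tags it for sequencing, so a peak marks a promoter, an enhancer or another accessible element. Hox genes encode homeodomain transcription factors that give cells their position along the body axis, and they are largely silent in undifferentiated ES cells. A bulk library cannot tell fewer cells with an open element from an element less open in every cell.

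A peak list holds no value where no peak passed the caller's limit, so an absent region is one that is not listed, and its signal is unknown. The lowest −log10 q listed was 1.30 in each library. The lists held 213705 and 216795 lines in wt replicates 1 and 2, and 191704 and 200214 lines in Hox-/- replicates 1 and 2. Each line gives the fold over local background at its summit and a p-value, from which the number of stacked reads at the summit and the background were recovered. In this model the fold is the reads plus 1 over the background plus 1, and folds are given below in that form. The lowest background, a relative measure of depth, was 7.46 and 7.02 reads in wt and 4.77 and 7.36 reads in Hox-/-. The shallowest library, Hox-/- replicate 1, thus stood at 0.640 of wt replicate 1, and at the lowest background its weakest listed summit held 12 reads, against 16 or 17 in the other libraries. All 9 ES cell marker genes had a peak near them in each library. Of 7 fibroblast feeder markers, 4 or 5 did, with none at Lum or Postn and one at Dcn only in wt replicate 1. Of 5 trophoblast markers 4 or 5 did, and of 5 primitive endoderm markers 4 did, with none at Gata4. Peaks are frequent at genes of any kind: 64.6% of 21263 annotated starts had a wt replicate 1 peak within 250 bp. The marker counts therefore neither identify nor exclude a cell type.

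Few wt-only regions lay on promoters, but these can be shown base by base, since RefSeq holds promoter sequences of assembly GRCm38.p6. No sequence of distal regions was used here. The table covers 18 of the 19 autosomes, and each promoter runs from 250 bases before to 50 bases after an annotated start. Of its promoters, 120 promoters of 112 genes overlapped a wt-only region, 54 of the genes protein-coding and 58 of them long non-coding. The 4 below belong to the best-ranked of these, Gm35202, and to the 3 protein-coding genes among the 8 best-ranked, and they show how much of a promoter such a region covers. Capitals mark the bases inside the wt-only region, and each is written 5′ to 3′ on the strand of its gene. The non-coding Gm35202 is on the plus strand at chr2:35503274-35503573. Ush1c, on the minus strand at chr7:46238441-46238740, encodes harmonin, a scaffold protein of sensory hair bundles. Fgd4, on the minus strand at chr16:16527362-16527661, encodes frabin, an exchange factor for Cdc42. Adssl1, on the plus strand at chr12:112619797-112620096, encodes the muscle form of adenylosuccinate synthase.
Gm35202: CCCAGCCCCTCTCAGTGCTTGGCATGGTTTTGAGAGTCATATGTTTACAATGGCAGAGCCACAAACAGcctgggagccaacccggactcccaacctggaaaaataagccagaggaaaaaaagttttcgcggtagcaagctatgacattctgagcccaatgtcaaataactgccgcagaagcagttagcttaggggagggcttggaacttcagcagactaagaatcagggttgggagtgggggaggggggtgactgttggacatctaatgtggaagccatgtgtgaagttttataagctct
Ush1c: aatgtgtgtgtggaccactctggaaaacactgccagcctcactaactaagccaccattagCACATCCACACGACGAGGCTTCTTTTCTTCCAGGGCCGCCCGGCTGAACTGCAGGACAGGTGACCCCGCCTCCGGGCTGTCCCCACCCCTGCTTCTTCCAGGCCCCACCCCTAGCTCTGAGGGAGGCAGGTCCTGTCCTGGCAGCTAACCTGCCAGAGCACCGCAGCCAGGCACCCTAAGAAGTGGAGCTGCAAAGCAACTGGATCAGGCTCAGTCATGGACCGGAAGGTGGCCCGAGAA
Fgd4: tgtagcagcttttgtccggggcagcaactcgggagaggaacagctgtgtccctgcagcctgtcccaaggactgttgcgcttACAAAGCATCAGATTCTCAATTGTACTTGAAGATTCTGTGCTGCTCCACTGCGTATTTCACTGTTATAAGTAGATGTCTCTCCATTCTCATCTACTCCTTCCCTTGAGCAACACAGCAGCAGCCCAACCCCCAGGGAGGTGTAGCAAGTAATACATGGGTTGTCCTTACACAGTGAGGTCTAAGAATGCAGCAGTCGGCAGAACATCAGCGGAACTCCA
Adssl1: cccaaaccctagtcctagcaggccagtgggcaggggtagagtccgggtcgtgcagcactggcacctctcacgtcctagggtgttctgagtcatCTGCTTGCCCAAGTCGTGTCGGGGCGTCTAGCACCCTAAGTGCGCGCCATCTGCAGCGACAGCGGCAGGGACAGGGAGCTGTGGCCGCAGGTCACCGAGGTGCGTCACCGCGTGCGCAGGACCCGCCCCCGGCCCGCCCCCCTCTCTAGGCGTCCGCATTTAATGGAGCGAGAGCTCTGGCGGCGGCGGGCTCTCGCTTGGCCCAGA

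At Gm35202 the region covered 68 of the 300 bases, the part furthest upstream. The stack at its summit was 109 reads in each wt library, with folds of 3.31 and 3.36 over a raised local background. In the Ush1c promoter 240 bases were covered, with 50 and 48 reads and folds of 4.47 and 4.25. In the Fgd4 promoter 219 bases were covered, with 103 and 82 reads and folds of 3.34 and 2.77. In the Adssl1 promoter 207 bases were covered, with 66 and 82 reads and folds of 3.06 and 3.89. The folds of the 4 were thus between 2.77 and 4.47. A Hox-/- peak was listed 541 bp from the Adssl1 region, 1342 bp from the Gm35202 region, 2106 bp from that of Ush1c and 3778 bp from that of Fgd4.

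The promoters overlapped by wt-only regions were poorer in G and C than promoters open in all 4 libraries. Their median GC content was 50.7%, against 60.7% of 15761 promoters with a region called in all 4 libraries, 53.3% of 45 with a Hox-/- only region, 53.5% of 230 of mixed pairs, 46.3% of 14297 without any region and 53% of all 31365. The Sp/Klf motif GGGCGG, searched on both strands like the others, was in 30.0% of the 120, in 61.7% of the promoters open in all 4 libraries and in 36.0% of all. It was in 31.1% of the promoters with a Hox-/- only region, 31.3% of those with a region of a mixed pair and 8.22% of those without any region, so a low share was common to regions called in exactly 2 libraries. The AP-1 motif TGANTCA was in 17 of the 120 (14.2%), in 4.95% of those open in all 4, in 2 of the 45 with a Hox-/- only region, in 6.96% of the 230 of mixed pairs, in 10.9% of those without any region and in 7.85% of all. The Hox-Pbx motif TGATNNAT was in 13 of the 120 (10.8%), in 3.76% of those open in all 4, in 7 of the 45, in 8.26% of the 230, in 14.4% of those without any region and in 8.81% of all. The homeodomain core TAATTA was in 3 of the 120, in 2.46% of those open in all 4, in 4 of the 45, in 3.91% of the 230, in 8.34% of those without any region and in 5.27% of all. The posterior Hox motif TTTATNG was in 16 of the 120 (13.3%), in 6.62% of those open in all 4, in 2 of the 45, in 23 of the 230, in 15.5% of those without any region and in 10.9% of all. Counts of 2 to 17 promoters leave these shares imprecise. In the same order of sets, the octamer ATGCAAAT was in 2, 246, 1, 4, 277 and 548 promoters, the Sox motif ACAAAG in 24, 2192, 8, 60, 3370 and 5838, and the Meis motif TGACAG in 29, 2608, 10, 39, 3102 and 5973. The E-box CACGTG was in 4, 1563, 2, 14, 595 and 2240, and the CTCF core motif in 5, 499, 0, 8, 236 and 775. Motifs were counted separately even where they overlap. A match says only that these letters are in the window, and the promoters share their selection by peak calls.

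The number of wt-only regions was set beside those of the other ways in which 2 of 4 libraries can share a region. There were 2523 Hox-/- only regions (1.24% of the autosomal regions and 1.95% of those called in both Hox-/- libraries). The pairs that mix the genotypes held 2402 regions for wt 1 with Hox-/- 1 (1.18%), 3928 for wt 2 with Hox-/- 2 (1.93%), 3678 for wt 1 with Hox-/- 2 (1.81%) and 2761 for wt 2 with Hox-/- 1 (1.36%). As shares of the regions called in both libraries of the pair these were 1.83%, 2.86%, 2.69% and 2.09%, against 5.34% for wt. The wt-only regions were thus 3.04 times the Hox-/- only regions and 1.95 times the most frequent mixed pair. The lists differ in length and depth, and the shallow Hox-/- replicate 1 has to lack a region for it to be wt-only, whereas it has to list a Hox-/- only region. When each list was limited to its 191704 strongest lines, the length of the shortest, the wt-only regions fell to 5026 (2.62% of 192025 regions) and the Hox-/- only regions rose to 3953 (2.06%). Their ratio was then 1.27. In the same order the mixed pairs held 2577 (1.34%), 3356 (1.75%), 3387 (1.76%) and 2668 (1.39%), so with equal lists both pairs of 1 genotype stood above all 4 mixed pairs. Leaving out a library raises both counts and makes them unlike in form. Without a Hox-/- library a wt-only region needs 2 calls and 1 absence, and a Hox-/- only region 1 call and 2 absences. There were 13355 and 11670 without Hox-/- replicate 1, and 17811 and 9694 without Hox-/- replicate 2. Without a wt library these requirements change places, and there were 19916 and 5652 without wt replicate 1, and 18493 and 5936 without wt replicate 2. The 2 counts of each such setting are therefore not compared.

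**Figure D1:**
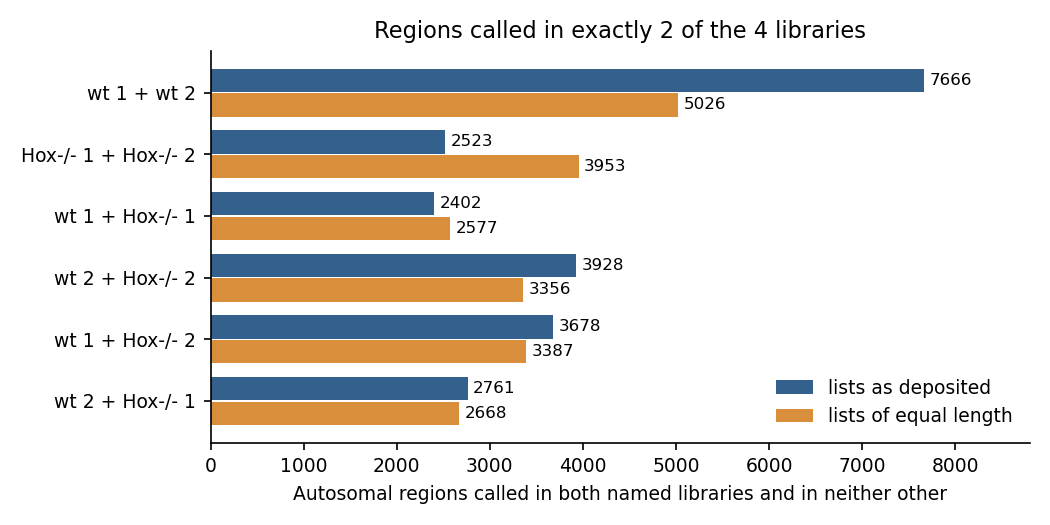
Number of autosomal regions called in both libraries of a pair and in neither other library (horizontal axis), for the 6 pairs, with the lists as deposited and limited to equal length. The wt pair is the largest in both settings, at 7666 and 5026, while the Hox-/- pair goes from 2523 to 3953.

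Most wt-only regions were weak in wt. Their median rank by −log10 p was 169241 in wt replicate 1 and 171412 in wt replicate 2, with 1 the strongest, and 183248 in whichever wt library ranked them worse. The regions called in all 4 libraries had a median worse wt rank of 76735. The other 5 pairs had median worse ranks of 171023 to 181486 in their own libraries, so a weak rank was common to regions called in exactly 2 libraries. At the summit the wt-only regions had a median of 30 and 29 reads, and their median folds were 3.07 and 3.12. In the worse wt library the median −log10 q was 5.33, with the lowest at 1.30 and the highest at 38.0. It was under 3 in 15.8% of the regions and over 10 in 935 of them (12.2%).

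The neighbours across the rule's boundary were a little stronger. The 10042 regions that Hox-/- replicate 2 shared with the wt pair, and Hox-/- replicate 1 did not, had a median worse wt rank of 167377 and a median Hox-/- −log10 q of 7.35, on 32 reads. The 5625 that Hox-/- replicate 1 shared with the wt pair, and Hox-/- replicate 2 did not, had a median rank of 172044 and a median Hox-/- −log10 q of 5.63, on 22 reads. More regions were thus absent from the shallower Hox-/- library alone than from the deeper one alone.

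The share of wt regions that were wt-only climbed steeply as the wt rank worsened. Among the 76125 regions within the strongest 100000 lines of both wt libraries, 48 were wt-only (0.0631%). Without Hox-/- replicate 1 or 2 these numbered 133 and 361, and without wt replicate 1 or 2 186 and 188. The share was 1.45% in the next 25000 ranks, then 5.53%, 12.2% and 20.2% in further steps of 25000, and 29.8% beyond rank 200000. Hox-/- only regions followed the same course at a lower level, from 17 regions (0.0228%) to 11.5% in the step up to rank 200000. With lists of equal length, the wt-only share lay above the Hox-/- only share in the first 3 such steps and not in the last range: 1.49% and 1.07% in the first step, 5.79% and 3.92% in the second, 12.9% and 10.6% in the third, and 20.3% and 21.3% after it. The mixed pairs lay below both in each of these ranges, reaching 14.6% to 16.8% in the last.

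**Figure D2:**
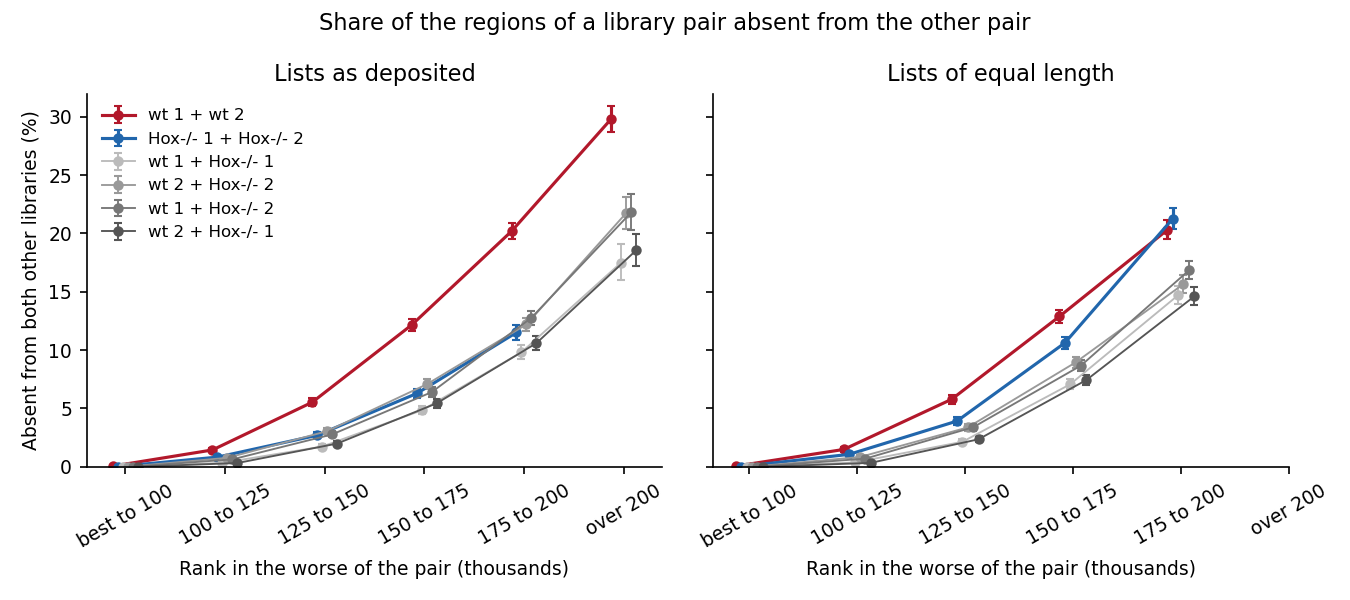
Percentage of the regions called in both libraries of a pair that were absent from both other libraries (vertical axis), by rank in the worse library of the pair (horizontal axis), with exact 95% binomial intervals that cover counting error only. With the lists as deposited, on the left, the wt pair lies above all others from rank 100000 on, and with equal lists, on the right, the Hox-/- pair meets it in the last range, at 21.3% against 20.3%.

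The regions were narrow. Their median width was 309 bp, with quartiles of 265 and 392 bp and a range of 200 to 1139 bp. Regions called in all 4 libraries had a median of 591 bp. Weaker regions were narrower, so medians were also taken within ranges of rank and averaged with the weights of the wt-only regions. This mean of medians was 426 bp for the other regions called in both wt libraries and 310 bp for the wt-only regions. A narrow width was common to all regions called in exactly 2 libraries, with medians of 294 to 303 bp in the other 5 pairs. The width spans all merged intervals of a region, so regions called in more libraries are wider in part by construction. A wider region is also more likely to be overlapped by a further list. In 88.9% of the wt-only regions each wt library had a single line. The widest were a region of 1139 bp inside Zfyve1, which encodes a lipid-binding protein of the Golgi and endoplasmic reticulum, 1 of 1009 bp beyond the end of Erich6, and 1 of 993 bp inside Wasf2, which encodes an activator of actin branching. None of these 3 was strong: their worse wt ranks were 203891, 200808 and 158637.

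The strongest wt-only region lay in a gene-poor stretch of chromosome 3, at chr3:130996856-130997277, 113020 bp from the nearest end of a protein-coding gene. That gene is Lef1, which encodes a transcription factor of the Wnt pathway. The stack was 67 reads in wt replicate 1 and 68 in wt replicate 2, with folds of 8.04 and 8.60, and the ranks were 67081 and 64499. The nearest Hox-/- peak was 6730 bp away. The second was at chr5:118801643-118801993, 36205 bp beyond the end of Med13l, which encodes a subunit of the Mediator complex. It had 66 and 62 reads, folds of 7.92 and 7.85 and ranks of 68348 and 71954. Both regions rested on the lowest background of their libraries and were alike in both wt libraries.

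The third lay within Zscan10, which encodes a zinc finger protein of pluripotent cells, at chr17:23604429-23604766. Its stack of 212 and 173 reads was far higher, but the local background was 7.86 and 8.16 times the lowest, and the folds were 3.57 and 2.98. A Hox-/- peak was listed 535 bp away. By fold its worse wt rank was 173573, where the Lef1 region kept a rank of 45276. Rank by p-value thus brought together regions on different backgrounds. In the model that ties these values, a higher background at a given p-value goes with more reads and a lower fold. The contrast in reads and fold between such regions of like rank therefore follows from their backgrounds and is not a separate finding.

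Of the 30 best-ranked regions, 18 were of the Zscan10 kind, with a background over 2 times the lowest in both wt libraries. Their summits held 72 to 212 reads, and the lower of their 2 wt folds ran from 2.42 to 4.19. A Hox-/- peak lay within 2 kb of 15 of them. They included regions in Abcb8, a mitochondrial transporter gene, in Ttf1, which encodes a terminator of ribosomal RNA transcription, in Usp48, a deubiquitinase gene, and 29555 bp from Socs3, which encodes a feedback inhibitor of cytokine signalling. The Abcb8 region had 135 and 133 reads at folds of 3.26 and 3.26, and the Socs3 region had 124 and 121 reads at 2.98 and 3.04. Their wt replicates matched closely, but in each case the peak rose from signal already above the lowest background.

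Another 9 of the 30 stood on the lowest background in both wt libraries, with 51 to 68 reads and lower folds of 6.15 to 8.04. Beside those near Lef1 and Med13l, they lay near Spp2, Herpud1, Pde2a and 1700113H08Rik, and inside Dkk2, Rab37 and Foxi1. Dkk2 encodes a secreted modulator of Wnt signalling, and its region at chr3:132154885-132155432 had 58 and 54 reads, folds of 6.97 and 6.86, and no Hox-/- peak within 51242 bp. Foxi1 encodes a forkhead factor of ear and kidney development, and its region at chr11:34204343-34204901 had 51 and 62 reads at folds of 6.15 and 7.85, 2 bp from an end of the gene. Herpud1, whose product takes part in the response to unfolded proteins, had a region 1954 bp away with 56 and 55 reads at 6.74 and 6.98. The last 3 of the 30 lay in Pank1, Bcas3 and Gm3325, between these kinds, with lower folds of 4.41 to 5.72. Over all 30, the nearest Hox-/- peak was 314 to 55917 bp away, with a median of 1604 bp. Ranked by fold, 11 of the 30 stayed within the strongest 100000 of both wt libraries.

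**Figure D3:**
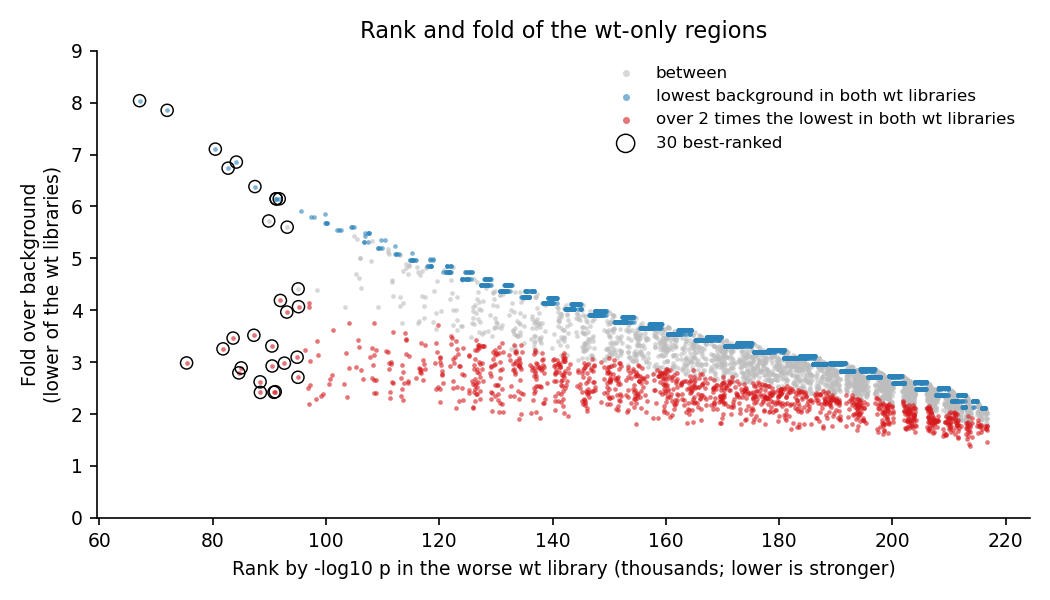
Each of the 7666 wt-only regions by its rank in the worse wt library (horizontal axis, ranks divided by 1000) and the lower of its 2 wt folds over background (vertical axis), coloured by local background, with the 30 best-ranked circled. Regions on the lowest background form the upper edge, the Lef1 region at its left end with 8.04, and those on raised background lie below, at 2.42 to 4.19 among the 30 best-ranked. This order is set by the model, in which a higher background at a given p-value goes with a lower fold.

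The same kinds of background were counted over all wt-only regions. The background was at its lowest in both wt libraries at 3972 of them (51.8%), over 2 times the lowest in both at 1254 (16.4%), and between at 2440 (31.8%). Regions on the lowest background had medians of 27 and 26 reads, a median lower fold of 3.07 and a Hox-/- peak within 2 kb in 23.7% of cases. Regions on raised background had medians of 59 and 58 reads, a median lower fold of 2.35 and a Hox-/- peak within 2 kb in 77.9%. The median distance to the nearest Hox-/- peak was 5390.5 bp in the former and 918 bp in the latter. Raised background also marked 30 of the 48 strongest regions, and without it 18 of those 48 and 12 of the 30 named regions remained. It marked 12 of the 17 regions as strong among Hox-/- only regions and, over the mixed pairs, 6 of 7, 6 of 10, 12 of 14 and 5 of 5. Of regions called in all 4 libraries, 30.6% and 31.5% had such a background in wt replicates 1 and 2, against 17.0% and 17.2% of wt-only regions. Over all 7666 the median distance to a Hox-/- peak was 2320 bp, with 1324 regions (17.3%) within 500 bp and 133 further than 50 kb. In the other 5 pairs the median distance to a peak of an absent library was 1891 to 2678 bp, and 17.4% to 20.3% lay within 500 bp, so closeness to such a peak was common to regions called in exactly 2 libraries.

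**Figure D4:**
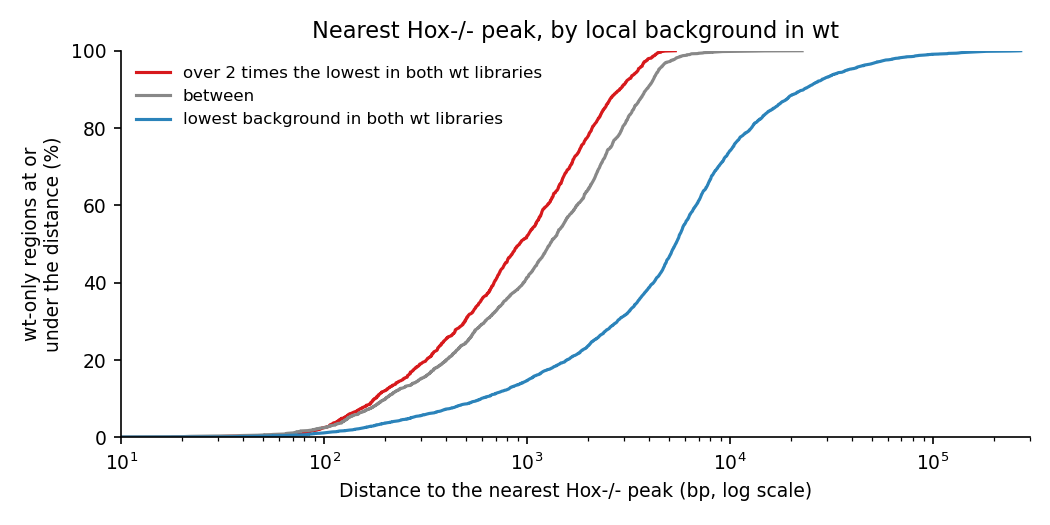
Cumulative percentage of wt-only regions (vertical axis) by distance to the nearest Hox-/- peak (horizontal axis, log scale), for the 3 kinds of local background in wt. Regions on raised background lie closest to a Hox-/- peak, with a median of 918 bp, and regions on the lowest background furthest, with a median of 5390.5 bp.

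The inside of protein-coding genes was the most frequent place of wt-only regions, as it was of all autosomal regions. Inside a protein-coding gene and over 1 kb from its ends were 53.8% of them, 9.74% lay outside at 1 to 10 kb from an end, 21.2% at 10 to 100 kb and 9.37% further. Of all autosomal regions, 47.1% were of the first kind and 9.26% of the last. Within 1 kb of an end of a protein-coding gene were 452 (5.90%, exact 95% binomial interval 5.38% to 6.45%, which covers counting error only). Regions called in all 4 libraries lay there in 15.2% of cases. The other regions called in both wt libraries, weighted to the ranks of the wt-only regions, had 7.44%. The other 5 pairs had 5.36% to 7.13%, so a low share near gene ends was common to regions called in exactly 2 libraries. The gene table gives no strand, so a gene's start and its end count alike. By the starts of the promoter table, 2.55% of 7423 regions lay within 1 kb of a start, beside 3.96% of the other regions of both wt libraries at the same ranks, 3.39% of Hox-/- only regions and 2.42% to 3.64% of the mixed pairs.

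The local background moved with the share near gene ends. It was 12.8% in regions on raised background, 7.05% in those between and 3.02% in those on the lowest background. Without the 1254 regions on raised background the share was 4.55%, and without regions that had a Hox-/- peak within 500 bp it was 4.67%. The part of background in the share was not tested. Protein-coding genes held 57.5% of the wt-only regions, 51.0% of the Hox-/- only regions, 54.5% to 57.4% of the mixed pairs and 55.2% of the other regions of both wt libraries at the same ranks.

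**Figure D5:**
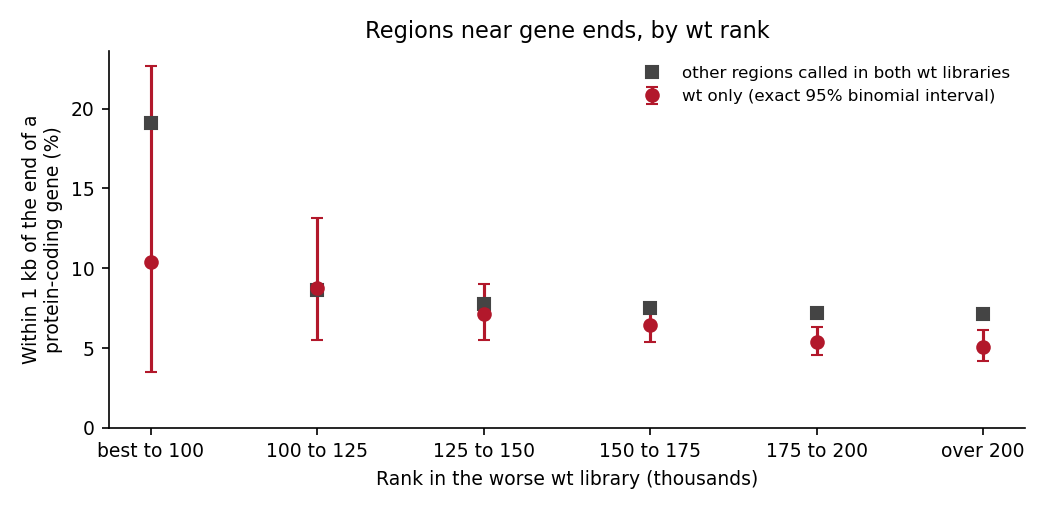
Percentage of regions within 1 kb of an end of a protein-coding gene (vertical axis) by rank in the worse wt library (horizontal axis, ranks divided by 1000), for wt-only regions with exact 95% binomial intervals and for all other regions called in both wt libraries. In the 2 weakest ranges the intervals of the wt-only regions lie below the rest, with 5.09% against 7.16% in the last, and in the best range 5 of 48 regions give a wide interval.

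Beside Abcb8, Usp48 and Foxi1, the best-ranked regions within 1 kb of a gene end belonged to Nkx6-3, Rassf7, C030002A05Rik, Sco2, Gm3213, Il9r and Olfr159. Nkx6-3, a homeobox gene of stomach and hindbrain, had 156 and 185 reads at folds of 2.498 and 3.07, 66 bp from its end, on a background 8.29 and 8.49 times the lowest. A Hox-/- peak was 363 bp away. Il9r, the interleukin-9 receptor gene, had 45 and 43 reads at 5.44 and 5.48 on the lowest background, and Olfr159, an olfactory receptor gene, had 48 and 43 reads at 5.79 and 5.48.

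Wt-only regions were spread over every autosome. Their share of the regions called in both wt libraries ran from 5.03% on chromosome 19 to 6.01% on chromosome 14. The share of Hox-/- only regions ran from 1.42% to 2.63%, below the wt-only share on all 19 chromosomes with the lists as deposited. The median gap between neighbouring wt-only regions was 139544 bp. The shares of the 19 chromosomes thus lay close together.

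Few wt-only regions lay next to each other. In 612 of them (7.98%, exact 95% binomial interval 7.39% to 8.61%) the neighbouring region in the merged list was also wt-only, and their density alone would give 7.39%. The Hox-/- only regions had 3.92% against 2.46% from their own density. The mixed pairs, in the order given above, had 2.41% against 2.35%, 3.51% against 3.82%, 3.45% against 3.58% and 3.26% against 2.69%. With lists of equal length the wt-only regions had 6.15% against 5.17% from density and the Hox-/- only regions 5.36% against 4.07%. The mixed pairs then had 2.56% against 2.67%, 3.01% against 3.46%, 3.19% against 3.497% and 3.97% against 2.76%. Both pairs of 1 genotype thus lay above their density in both settings, as did the pair of wt 2 with Hox-/- 1, and these differences were not tested. With the lists as deposited, the interval of the wt-only share just reached down to its density value. That of wt 2 with Hox-/- 1, 2.63% to 3.99%, included its own, and that of the Hox-/- only regions, 3.20% to 4.76%, lay above its own. The wt-only regions formed 294 runs of 2 and 8 runs of 3, and no run was longer. The runs of 3 lay inside Bmpr2, Cgnl1, Tjp1, Acot11 and Slc10a7, and nearest to Acot4, Tubb3, and Grid1 with 4930596D02Rik. Bmpr2 encodes a receptor for bone morphogenetic proteins, and its run spanned 20715 bp. There wt replicate 1 had 27, 34 and 24 reads and wt replicate 2 had 25, 33 and 28 along the run, all on the lowest background. Cgnl1 and Tjp1 encode proteins of tight junctions, with runs of 12184 and 5902 bp. The run near Tubb3, a neuronal tubulin gene, was 2270 bp long and stood on a background 2.92 to 3.60 times the lowest.

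On the scale of 1 Mb some windows held many of the regions. Of 2409 windows of 1 Mb with any region, 77 held 10 or more wt-only regions, while 5 held as many Hox-/- only regions and 2 as many of a mixed pair, all of which are fewer in number to begin with. The fullest window of Hox-/- only regions held 16, and that of a mixed pair 10, so dense windows were not particular to wt. The fullest with wt-only regions, at 32 to 33 Mb of chromosome 4, held 18 wt-only regions among 129 called in both wt libraries (14.0%, beside 5.34% over the autosomes). It held 0 Hox-/- only regions and 2, 4, 1 and 4 of the mixed pairs, and 15 of the 18 lay nearest to Bach2, which encodes a transcriptional repressor of lymphocyte differentiation. The next, at 118 to 119 Mb of chromosome 5, held 17 of 145 (11.7%), 12 of them nearest to Med13l. The other 3 of the 5 fullest were on chromosome 14 around Dock9 (15 of 136), chromosome 17 around Trerf1 (15 of 182, with 4 Hox-/- only regions and 8 of the pair of wt 1 with Hox-/- 2) and chromosome 11 around Stx8 (14 of 134). These windows are the fullest by count and not by share. In 19 windows with at least 20 regions the wt-only share was over 15%, higher than in any of these 5.

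Bach2 was the protein-coding gene with the most wt-only regions between its ends, 11 of the 50 called there in both wt libraries (22.0%, beside 5.34% over the autosomes), with 0 Hox-/- only regions and 0, 1, 1 and 2 of the mixed pairs. The 15 regions nearest to Bach2 spanned chr4:32138004-32581905. Their reads ran from 18 to 75 with a median of 32 in wt replicate 1, and from 20 to 67 with a median of 30 in wt replicate 2. Folds ran from 2.09 to 5.08 and from 2.27 to 5.42. The 2 wt libraries did not always rank them alike: the region at chr4:32297194-32297673 had 42 and 22 reads, and that at chr4:32335753-32336073 had 32 and 51. Their best worse rank was 153644, so all 15 were weak, and 6 of them stood on the lowest background in both wt libraries.

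Med13l held 8 of 41 (19.5%), and the 15 regions nearest to it included the strong one described above, the second of the 7666. The others near it ranked between 125979 and 210488 in their worse wt library. Tmem132d, which encodes a membrane protein of the nervous system, also held 8, of 51. Grid1, a glutamate receptor gene, held 7 of 36, Dock9, an exchange factor gene for Cdc42, 7 of 37, and Frmd4b, a scaffold gene, 7 of 38. Ank3, which encodes an ankyrin of axon membranes, held 7 of 54, Cdh13, which encodes T-cadherin, 7 of 68, and Dst, a cytoskeletal linker gene, and Tenm4, a teneurin gene, 7 of 82 each. All of these are long, from 205 to 1185 kb. In all, 3222 of 20665 protein-coding autosomal genes (15.6%) held a wt-only region and 5.55% held a Hox-/- only region.

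The regions of the same genes that were called in all 4 libraries are not wt-only regions, and their ranks were compared between genotypes. The genes were chosen for their wt-only regions in the same libraries, so these ranks are not independent of that choice. Over the genome 20.4% of the 120125 such regions ranked lower in both Hox-/- libraries than in both wt libraries, and 20.5% ranked higher. Inside Bach2 10 of 32 ranked lower in both Hox-/- libraries and 4 higher. In Frmd4b the numbers were 10 and 1 of 23, in Tmem132d 10 and 1 of 32, and in Grid1 7 and 2 of 22. In Med13l they were 8 and 5 of 28, in Ank3 9 and 7 of 40 and in Tenm4 11 and 12 of 63. In Dock9 they were 3 and 8 of 27, in Dst 8 and 15 of 65, and in Cdh13 6 and 18 of 55. More regions ranked lower than higher in 6 of these 10 genes. These are counts of neighbouring regions in the same 4 libraries, by ranks in lists of different length, and were not tested.

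The flanks of the Hox clusters held wt-only regions at about the level of the genome. Of 84 wt-replicated regions within 100 kb of a cluster 5 were wt-only (5.95%), and of 904 within 1 Mb 40 were (4.42%, exact 95% binomial interval 3.18% to 5.98%), beside 5.34% in all. By cluster, the 1 Mb flanks held 9 of 201 at HoxA, 12 of 338 at HoxB, 8 of 237 at HoxC and 11 of 128 at HoxD (8.59%). One of the HoxD regions lay 2113 bp from Evx2, the homeobox gene beside HoxD, at chr2:74663633-74663858, with folds of 3.21 and 3.28.

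Regions were also counted by the nearest protein-coding gene, for 9 gene lists. The share that was wt-only can be read against the 5.34% of all regions called in both wt libraries. It was 27 of 579 (4.66%) for pluripotency genes, 11 of 198 (5.56%) for mesoderm and primitive streak genes, 11 of 164 (6.71%) for endoderm genes and 23 of 397 (5.79%) for neural and neural crest genes. It was 8 of 214 (3.74%) for Hox cofactors, the TALE homeodomain proteins and their kin. For a list of 56 homeobox genes outside the Hox clusters, which is not complete and leaves out Nkx6-3, it was 46 of 768 (5.99%). Imprinted genes had 12 of 209 (5.74%), clustered protocadherins 6 of 114 (5.26%) and olfactory receptors 19 of 545 (3.49%, exact 95% binomial interval 2.11% to 5.39%). The interval of each of the 9 lists included the share of all regions.

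The best-ranked regions of the lists that are described here had folds of 2.43 to 5.85. Among pluripotency genes, a region 33542 bp from Prdm14, which encodes a repressor that guards naive pluripotency, had folds of 2.65 and 3.70. One inside Tet2, a gene of DNA demethylation, had 3.55 and 3.58, and one 1937 bp from Sox2, a core pluripotency factor, had 2.43 and 2.73 with a Hox-/- peak 844 bp away. Among mesoderm genes, Mesp2, a segmentation gene, had a region 701 bp from its end inside the gene with folds of 3.91 and 4.11, and T, the Brachyury gene of the primitive streak, had one at 5936 bp with 3.66 and 4.24. For the endoderm, a region 239466 bp from Foxa2 had 3.90 and 3.99. For the neural list, a region 30878 bp from Neurog1, a proneural gene, had 3.23 and 3.24 at ranks of 94531 and 96253. The Hox cofactor Pknox1 had a region inside the gene with 2.60 and 2.56, 245 bp from a Hox-/- peak. Of the imprinted genes, Slc38a4, an amino acid transporter gene, had one at 66336 bp with 3.98 and 5.02. The best-ranked region of the listed homeobox genes outside the clusters lay 373841 bp from Nkx6-1, a gene of neural tube and pancreas development, with 4.73 and 5.85. The Nkx6-3 region described above ranked better, but that gene is not in the list. The best-ranked region of the olfactory receptors lay 6749 bp from Olfr539 with 2.86 and 3.01, and that of the clustered protocadherins, adhesion genes of neurons, inside Pcdhga12 with 2.82 and 3.25.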

How the data were processed

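ATAC-seq was measured in 4 libraries, and 1 peak list per library was deposited, with replicates not pooled at peak calling. The submitters' processing notes name cutadapt 4.8, Bowtie2 2.5.0, Picard 2.18.2, bedtools 2.30.0, MACS2 2.2.9.1, deepTools 3.5.4 and the build mm10, without roles or parameters. Read filters and any shift for the transposase are not given in the sources used here. The deposited lists give a fold over background (a ratio), a −log10 p-value and a −log10 q-value for each peak, all the authors' own values, used here only to describe and rank peaks within a list.

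Intervals of the 4 lists were merged, and each list was ranked by −log10 p. Summit reads and background were solved from fold and p under a Poisson model. All solved lines, those with −log10 p under 250, gave a whole number of reads within 0.05. Depth in reads is otherwise unknown. The lowest background is its 0.1% quantile. Gene names, ends and promoters came from RefSeq GRCm38.p6. The match was checked: 64.6% of 21263 starts had a wt replicate 1 peak within 250 bp, against 11.4% after a shift of 10 kb. The scripts were tested on simulated data (Python 3.11.15, pandas 2.3.3, scipy 1.17.1).

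Named regions and genes are the 30 best-ranked, the 10 best-ranked within 1 kb of a gene end, the 3 widest, the longest runs, the 5 fullest windows, the 10 genes with most regions, and the best-ranked of each list. A promoter was shown where a best-ranked region overlapped it. The members, lists and rules were chosen with earlier results of these data known. Alternatives changed the merging, the call of absence, the q limit, list lengths, coverage, windows and libraries.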

Additional observations from a re-analysis of the deposited data

How the results depend on the processing

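With 2 libraries per genotype and no value below the listing limit, an absent peak may be a weak one, and the lists cannot give its size. The number of wt-only regions fell from 7666 to 5026 with lists of equal length. With 1 library left out it was 13355 to 19916, since 1 call or 1 absence fewer is then asked for. Merging across 100 bp, a −log10 q of at least 2 and a distance of 500 bp to Hox-/- peaks gave 7463, 7701 and 6342. The share near a gene end was 2.15% within 250 bp, 11.9% within 2.5 kb, 4.67% without regions that had a Hox-/- peak within 500 bp, 4.55% without raised background and 2.55% by gene starts, the last 2 chosen after seeing the data. The share next to another wt-only region was 6.15% with equal lists (5.17% from density alone), 9.51% when at least 50% of a region had to be covered, 11.6% among regions called in both wt libraries, and 14.2% to 21.3% with 1 library left out. A denser set of wt-only regions raises this share by itself. Density values were not computed for the settings after equal lists, so their higher shares do not show more clustering. The median worse wt rank was 168312.5 with equal lists, 178061 under the 50% cover, 176957 by fold, 185708 without raised background, and 175355 to 180763 with 1 library left out. The strongest regions numbered 352 under the 50% cover, 105 by fold and 133 to 361 with 1 library left out, against 48. The replicate numbers did not pair the libraries: over 120125 regions the correlation of the replicate differences of both genotypes was 0.00415. Treated as a replicate block, each number alone, they gave a mean of 29877.5 wt-only regions, 28.3% next to another and a median rank of 173475.25. Settings with 1 library left out, with equal lists or with another window use fewer libraries, fewer lines or another window by construction. For the other settings the cause was not tested. Of the 49 alternative values of these 4 results, 21 stayed within 1.5 times the count, the interval of the share or the spread of the rank between the wt libraries.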
